A study of Mus musculus with 6 samples.

Results

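The 45 genes described here take fatty acids into the brain, bind them, build them, activate them and burn them. They were listed by symbol for these roles and found by Ensembl identifier in GENCODE M21 (build GRCm38) among the 60354 features of the count files, and each symbol matched 1 feature. RNA was taken from whole brains of male C57BL/6NCrSlc mice that were 16 weeks old when the diets began. The 3 PLDP mice (mice 17, 22 and 26) were given, for 16 weeks, modified AIN-93M in which PLDP, a protease-treated porcine liver product, made up 20%, and the 3 control mice (mice 2, 5 and 10) ate a modified AIN-93M diet adjusted in calories. PLDP itself carries phospholipids, phosphatidylcholine and lysophosphatidylcholine among them, and carbohydrate that includes added dextrin. The PLDP diet held less casein and soybean oil than the control diet, and more alpha-cornstarch and cystine. All mice had gone through the same series of behavioral tests, during which no PLDP was given, so RNA was collected some time after the last PLDP meal. The question put to these genes is whether their brain RNA differed between mice on the 2 diets.

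In the brain, long-chain fatty acids come from the blood or are made locally. Docosahexaenoic acid crosses the blood-brain barrier largely as lysophosphatidylcholine through Mfsd2a, whereas saturated and monounsaturated fatty acids are mostly built in the brain from acetyl-CoA and go in large part into myelin. Chains are lengthened at the endoplasmic reticulum by a cycle of condensation (the Elovl enzymes), reduction (Hsd17b12), dehydration (the Hacd enzymes) and a further reduction (Tecr), and double bonds are put in by the Scd and Fads desaturases. Acyl-CoA synthetases activate free fatty acids, and carnitine palmitoyltransferases lead them into mitochondrial beta-oxidation, which neurons use little. Srebf1 encodes a transcription factor that drives lipogenic genes, and the PPAR receptors are nuclear receptors that bind fatty acids.

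Of the 45 genes, 44 passed the filter on low counts and were tested. At an unadjusted p under 0.05, the threshold at which a gene is said to be called, 6 of them were lower in the PLDP mice, namely Acly, Srebf1, Scd1, Fabp5, Acsl1 and Acsl6, and 1 was higher, Slc27a1. The 6 lower genes are 13.6% of the members tested, against 3.69% of all 18580 features tested, and the 1 higher gene is 2.27%, against 4.91%. Without control mouse 5 only 2 members were lower (4.55%, against 2.72% of all features) and without control mouse 2 only 3 (6.82%, against 2.59%). In both directions together, 3 of 44 members were then called in either fit (6.82%), near the 6.49% and 5.95% of all features, whereas with all mice 7 were called (15.9%, against 8.60%). The changes were small. The largest absolute log2 fold change among the 44 genes was 0.186 (Cpt2, which did not pass), and the median absolute log2 fold change was 0.050, against 0.074 over all features. No member passed an adjusted p of 0.05 with edgeR's quasi-likelihood test, limma voom or DESeq2, while 6 features (0.0323%) did in the whole table with edgeR's quasi-likelihood test, and in that test the smallest adjusted p among the members was 0.306. The median log2 fold change of the members was -0.031, with 19 positive and 25 negative values, against -0.001 over all features. In 5 members all 3 PLDP mice lay above all 3 control mice (11.4%, against 7.29% of all features) and in 3 they lay below (6.82%, against 6.90%). At 3 mice per diet, the smallest two-sided p that exact permutation could reach for one gene is 0.1.

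**Figure D1:**
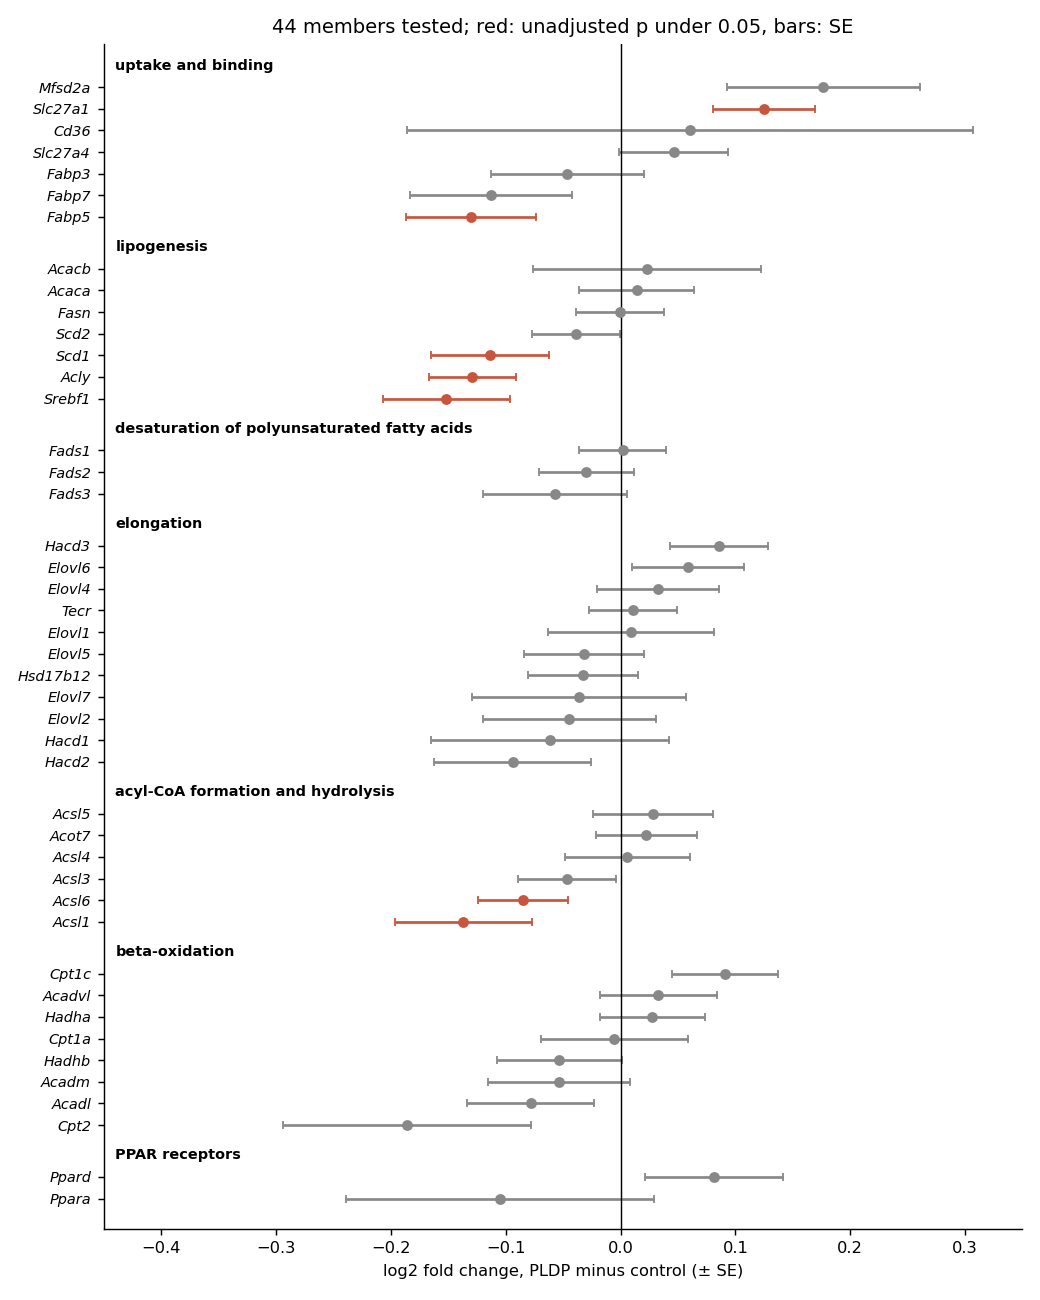
Fitted log2 fold changes (horizontal axis, PLDP minus control, with standard errors) of the 44 members tested, grouped by role, from 3 mice per diet. The 7 genes in red had an unadjusted p under 0.05, and 3 of them, Srebf1, Acly and Scd1, belong to lipogenesis.

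The brains differed in their levels of marker genes. Totals were between 18797061 and 23938729 counts on genes per mouse, and the members took between 0.508% and 0.529% of them. The summed level of 14 Hox genes, which mark the hindbrain and spinal cord, was between 24.9 and 31.7 CPM (counts scaled to library size with TMM factors) in the control mice, but 21.7, 5.45 and 7.75 CPM in PLDP mice 17, 22 and 26, and 10 of the 11 Hox genes tested were called lower. Log2 fold changes are therefore also given with mice 22 and 26 left out, a fit in which the lone PLDP mouse is assumed to vary as the control mice do. Its p-values rest on 1 PLDP mouse and are not used. Oligodendrocyte markers summed to between 5270 and 5660 CPM in the control mice and to 5520, 4900 and 4950 CPM in PLDP mice 17, 22 and 26. All 10 of these markers had negative log2 fold changes and 4 were called lower, Mbp, Ermn and Ugt8a among them. Endothelial markers summed to between 339 and 351 CPM in the control mice and between 358 and 365 CPM in the PLDP mice, and 3 of 10 were called higher, Pecam1, Slc2a1 and Flt1, while 4 had negative log2 fold changes, from -0.14 (Slco1a4) to -0.02 (Tek). Slc2a1 alone went from a mean of 89.3 CPM to 100.3 CPM. Astrocyte markers summed to between 4400 and 4460 and between 4330 and 4640 CPM, with 0 of 10 called higher and 1 lower, Aqp4. Choroid plexus markers summed to between 770 and 826 CPM in the control mice and to 604, 768 and 712 CPM in PLDP mice 17, 22 and 26. Of these 9 markers 2 were called lower, Ttr and Folr1. Mouse 17, the PLDP mouse kept when mice 22 and 26 are left out, thus had the lowest choroid plexus sum of all mice. No marker of the lists above was at 0 in any mouse except among the Hox genes, of which 3 had no count in at least 1 mouse. Of 10 genes of cortex and hippocampus, 4 were called higher, Fezf2, Rorb, Cux2 and Nrgn. Of 10 immediate early genes, which follow neuronal activity, 9 had positive log2 fold changes and 3 were called higher, Dusp1, Arc and Fosb, with sums of 769 to 880 CPM in the control mice against 729, 997 and 1090 CPM in PLDP mice 17, 22 and 26. In whole brain, fewer cells of a type and less RNA per cell cannot be told apart.

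**Figure D2:**
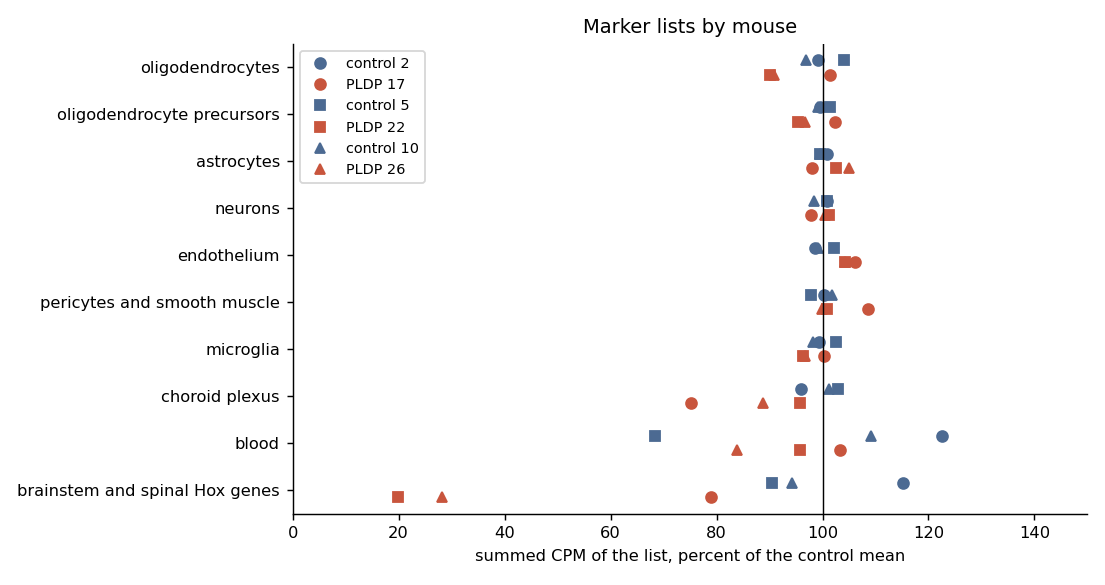
Summed CPM of 10 marker lists per mouse, as a percentage of the mean of the 3 control mice (horizontal axis), with control mice in blue and PLDP mice in red. The Hox list of PLDP mice 22 and 26 stands far below the other 4 brains, and the endothelial list of all 3 PLDP mice lies to the right of the 3 control mice.

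Because lipogenic genes share regulators, the promoters of the lower genes were read for 4 short motifs. Windows of 250 bases before to 50 after each annotated start were taken from a table of RefSeq promoters (GRCm38.p6), in which 41 of the 45 members were matched. Those of Fabp5, Fads1, Scd1 and Scd2 were not analysed here. The letters searched, on both strands, were TCACCCCAC (the core of a sterol element), CACGTG (an E-box), CCAAT (the box bound by NF-Y, a partner of the SREBP proteins) and AGGTCA (the unit that PPAR receptors bind in pairs). No motif contains another, and in the windows shown no matches overlap. The windows of Acly, Srebf1, Acsl1 and Acsl6 are shown, since these are the lower genes that the table holds. For a gene with several windows the one with most matches is given, and of the 2 Srebf1 windows with equal matches the one farther upstream. All are written 5′ to 3′ on the gene's strand, with matches to the 4 motifs or their reverse complements in capitals.
Acly, chr11:100527951-100528250, minus strand: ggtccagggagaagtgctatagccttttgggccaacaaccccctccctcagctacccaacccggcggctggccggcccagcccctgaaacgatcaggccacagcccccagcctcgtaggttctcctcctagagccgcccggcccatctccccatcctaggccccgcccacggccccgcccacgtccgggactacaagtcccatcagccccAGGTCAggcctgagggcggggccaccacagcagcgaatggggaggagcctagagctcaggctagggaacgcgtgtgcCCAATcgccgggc
Srebf1, chr11:60222532-60222831, minus strand: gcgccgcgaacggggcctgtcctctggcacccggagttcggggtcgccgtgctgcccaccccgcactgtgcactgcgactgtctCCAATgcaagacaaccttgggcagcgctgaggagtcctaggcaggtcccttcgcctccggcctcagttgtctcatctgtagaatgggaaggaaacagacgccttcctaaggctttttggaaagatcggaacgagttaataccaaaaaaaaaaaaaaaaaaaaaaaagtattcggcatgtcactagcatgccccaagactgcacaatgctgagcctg
Acsl1, chr8:46490716-46491015, plus strand: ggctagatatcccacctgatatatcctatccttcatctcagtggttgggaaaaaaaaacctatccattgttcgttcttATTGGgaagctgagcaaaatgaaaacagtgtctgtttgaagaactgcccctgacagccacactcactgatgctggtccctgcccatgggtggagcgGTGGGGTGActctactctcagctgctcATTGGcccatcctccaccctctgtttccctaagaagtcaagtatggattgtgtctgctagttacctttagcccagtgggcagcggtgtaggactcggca
Acsl6, chr11:54303574-54303873, plus strand: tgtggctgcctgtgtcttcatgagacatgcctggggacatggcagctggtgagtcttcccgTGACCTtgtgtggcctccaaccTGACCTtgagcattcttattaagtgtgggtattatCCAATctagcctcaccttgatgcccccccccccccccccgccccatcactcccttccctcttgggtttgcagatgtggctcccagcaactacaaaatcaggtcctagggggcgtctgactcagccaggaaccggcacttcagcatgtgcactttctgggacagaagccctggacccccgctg

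The Acly window holds the PPAR unit at bases 211 to 216 and a CCAAT box at bases 288 to 292, counted from 1 at its 5′ end. The Srebf1 window holds a CCAAT box at bases 85 to 89. The Acsl1 window holds the sterol core in reverse complement at bases 175 to 183 and the CCAAT box in reverse complement at bases 79 to 83 and 202 to 206, and it belongs to the second of 2 annotated starts, since the first window of Acsl1 holds none of the 4 motifs. The Acsl6 window, the first of 3, holds a CCAAT box at bases 119 to 123 and the PPAR unit in reverse complement at bases 62 to 67 and 84 to 89. Of the 41 members, only Acsl1 had the sterol core, which 0.551% of all 32851 windows hold. A CCAAT box was in 25 of the 50 windows of members, against 37.4% of all windows, and the PPAR unit in 13 (26.0%), against 16.3%. An E-box was in 4 of the 50, that of Slc27a1 among them, against 7.15%, and a pair of PPAR units 1 base apart was in none, against 0.0396%. A match describes these letters in these windows, and binding of a factor was not measured.

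Lipogenesis held 3 of the 6 lower genes. Acly, ATP citrate lyase, which cleaves citrate to give the acetyl-CoA from which fatty acids are built, had the smallest p of all members (ENSMUSG00000020917, chromosome 11 of GRCm38 from 100476353 to 100528000). Its level was 217, 217 and 214 CPM in control mice 2, 5 and 10, and 194, 199 and 199.9 CPM in PLDP mice 17, 22 and 26. The diets did not overlap, and the gap between them was wider than the spread within either. Acly averaged 216 ± 1.40 CPM in the control mice and 198 ± 3.14 CPM in the PLDP mice (SD over 3 mice per diet). The fitted log2 fold change was -0.13 (SE, its standard error, 0.04, edgeR quasi-likelihood adjusted p = 0.306, Benjamini-Hochberg over all features). Whichever mouse was left out, the unadjusted p of Acly stayed under 0.05, and its log2 fold change was -0.16 with mice 22 and 26 left out. The PLDP mouse with the lowest Acly level, mouse 17, is the one whose oligodendrocyte markers (5520 CPM) lay within the range of the control mice.

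Srebf1, the gene of the sterol regulatory element-binding transcription factor that controls lipogenic enzymes (ENSMUSG00000020538, chromosome 11 from 60199089 to 60222581), had 68.8, 74.0 and 65.7 CPM in the control mice and 59.6, 63.1 and 65.2 CPM in the PLDP mice. The groups were separate, but the highest PLDP mouse was close to the lowest control mouse. Srebf1 averaged 69.5 ± 4.18 CPM in the control mice and 62.6 ± 2.78 CPM in the PLDP mice (SD, n = 3 each). It had a log2 fold change of -0.15 (SE 0.06, edgeR adjusted p = 0.449). Without control mouse 5 its log2 fold change was -0.10 and its p no longer under 0.05. With mice 22 and 26 left out the log2 fold change was -0.22. Srebf1 shares 66 exonic bases on its own strand and 109 on the other strand with other annotated genes (Rai1 and Mir6922), and the sources used here do not say whether the counting used strand.

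Scd1, the stearoyl-CoA desaturase that makes oleic acid (ENSMUSG00000037071, chromosome 19 from 44394455 to 44407879), had 212, 241 and 213 CPM in the control mice and 198, 216 and 201 CPM in the PLDP mice. Control mouse 5 was far above all others, and PLDP mouse 22 exceeded control mice 2 and 10. The log2 fold change was -0.11 (SE 0.05, edgeR adjusted p = 0.553), and without control mouse 5 it was -0.05 and not called. The call was also lost without PLDP mouse 17, without PLDP mouse 26 and with the likelihood ratio test. With mice 22 and 26 left out the log2 fold change was -0.17. Scd2, the form that predominates in brain and the member with the highest level per length, had 1346.5, 1406 and 1292 CPM in the control mice and 1261, 1319.9 and 1357 CPM in the PLDP mice. Its diets overlapped, with a log2 fold change of -0.04 (SE 0.04). The log2 fold change of Scd2 was -0.10 when mice 22 and 26 were left out, but -0.01 without control mouse 5 and -0.01 without PLDP mouse 17. Scd1 and Scd2 are neighbors on chromosome 19 and close paralogs, so reads that match both could move between them.

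The enzymes that use the acetyl-CoA did not pass the test. Fasn, fatty acid synthase, had between 276 and 290.3 CPM in the control mice and between 282 and 288 CPM in the PLDP mice, a log2 fold change of -0.0005 (SE 0.04). Acaca and Acacb, the acetyl-CoA carboxylases that make malonyl-CoA, had log2 fold changes of 0.01 (SE 0.05) and 0.02 (SE 0.10). Within lipogenesis, the genes at the entry (Acly) and at the desaturation step (Scd1) and the regulator Srebf1 were thus called, whereas the 2 carboxylases, the synthase and Scd2 were not, and no difference between these genes was tested.

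**Figure D3:**
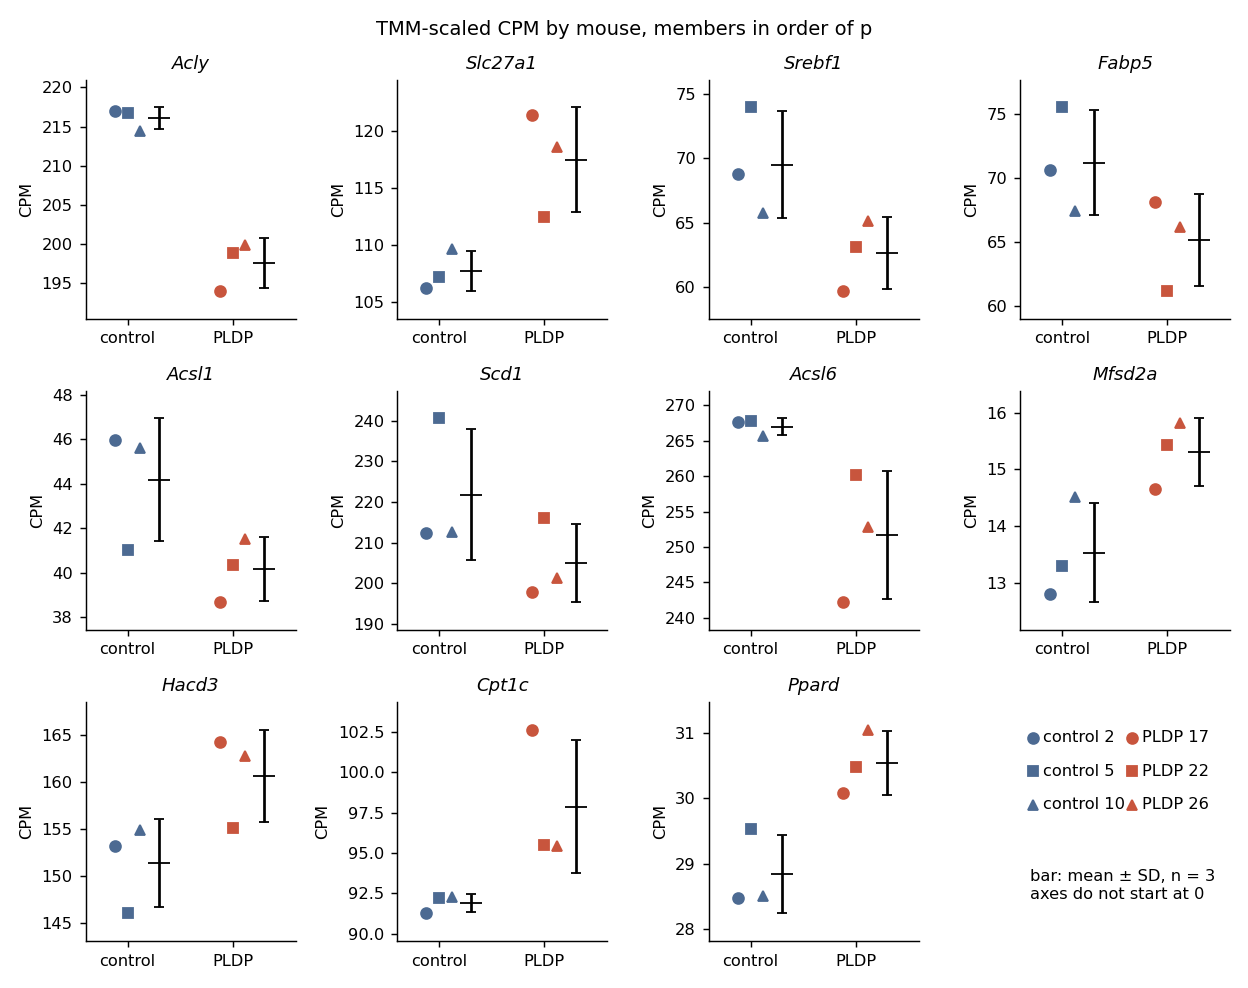
CPM after TMM scaling (vertical axes, which do not start at 0) of the 7 members with an unadjusted p under 0.05 and of 4 others whose diets did not overlap, 1 symbol per mouse, with the mean and SD of 3 mice beside them. In Acsl6, Cpt1c and Acly the control mice lie close together, and in Scd1 and Srebf1 control mouse 5 stands above the other control mice.

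Acyl-CoA formation held 2 further lower genes. Acsl1, a long-chain acyl-CoA synthetase (ENSMUSG00000018796, chromosome 8 from 46471037 to 46536051), had 45.9, 41.0 and 45.6 CPM in the control mice and 38.7, 40.3 and 41.5 CPM in the PLDP mice. The groups overlapped because control mouse 5 lay below PLDP mouse 26. The log2 fold change was -0.14 (SE 0.06, edgeR adjusted p = 0.536), and the p was under 0.05 in 2 of the 6 fits without 1 mouse, those without control mouse 5 and without PLDP mouse 26, and over 0.05 with DESeq2. With mice 22 and 26 left out the log2 fold change was -0.19. Acsl1 shares 1039 exonic bases with Gm45244 on the other strand.

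Acsl6, the synthetase that favors docosahexaenoic acid in brain (ENSMUSG00000020333, chromosome 11 from 54303798 to 54364756), had 268, 268 and 266 CPM in the control mice and 242, 260.2 and 253 CPM in the PLDP mice. All PLDP mice lay below the control mice, which differed among themselves by little. Its log2 fold change was -0.09 (SE 0.04, edgeR adjusted p = 0.565). The p was under 0.05 in 1 of the 6 fits without 1 mouse, that without PLDP mouse 22, and it was over 0.05 with upper-quartile factors, DESeq2 and the likelihood ratio test. With mice 22 and 26 left out the log2 fold change was -0.14. The other synthetases were not called. Acsl3, the synthetase with the highest level per length here, had a log2 fold change of -0.05 (SE 0.04), Acsl4, which prefers arachidonic acid, 0.01 (SE 0.05), and Acsl5 0.03 (SE 0.05). Acot7, the main acyl-CoA thioesterase of brain, which hydrolyzes acyl-CoA back to the free acid, had between 245 and 258 CPM in the control mice and between 241 and 268 CPM in the PLDP mice (log2 fold change 0.02, SE 0.04), and this value turned to -0.02 without PLDP mouse 17.

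Uptake and binding held the only gene called higher. Slc27a1, fatty acid transport protein 1, which takes up and activates long-chain fatty acids (ENSMUSG00000031808, chromosome 8 from 71568882 to 71587302), had 106, 107 and 109.7 CPM in the control mice and 121, 112 and 119 CPM in the PLDP mice. The diets did not overlap. Slc27a1 averaged 108 ± 1.77 CPM in the control mice and 118 ± 4.603 CPM in the PLDP mice (SD over 3 mice per diet). It had a log2 fold change of 0.12 (SE 0.04, edgeR adjusted p = 0.438). Its p was under 0.05 in 5 of the 6 fits without 1 mouse, the exception being that without control mouse 2, and its log2 fold change was 0.17 with mice 22 and 26 left out. The related Slc27a4 had a log2 fold change of 0.05 (SE 0.05).

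Mfsd2a, the lysophosphatidylcholine transporter of the blood-brain barrier (ENSMUSG00000028655, chromosome 4 from 122946850 to 122961188), had 12.8, 13.3 and 14.5 CPM in the control mice and 14.6, 15.4 and 15.8 CPM in the PLDP mice. The groups did not overlap, with the highest control mouse next to the lowest PLDP mouse. Its log2 fold change of 0.18 (SE 0.08, edgeR adjusted p = 0.583) was the highest of all members but was not called. It was called with limma voom, with upper-quartile factors, with Ensembl genes only, without control mouse 10 and without PLDP mouse 17, and not under the other alternatives, DESeq2 among them. With mice 22 and 26 left out its log2 fold change dropped to 0.11. Mfsd2a is an endothelial gene, and the endothelial marker sum given above likewise did not overlap between the diets, with the PLDP mice higher. The markers in that sum moved in both directions, and Slc2a1, the most abundant of them, alone went from a mean of 89.3 to 100.3 CPM. The part of the endothelial sum in the values of Mfsd2a was not tested. Cd36, a scavenger receptor for fatty acids, was at between 1.11 and 1.91 CPM (23 to 41 counts), too few to show a difference of this size (log2 fold change 0.06, SE 0.25).

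The fatty acid binding proteins carry fatty acids through the cytosol. Fabp5, the epidermal type (ENSMUSG00000027533, chromosome 3 from 10012548 to 10016607), had 70.6, 75.5 and 67.4 CPM in the control mice and 68.1, 61.1 and 66.1 CPM in the PLDP mice. Only PLDP mouse 17 overlapped the control mice, and it did so by less than 1 CPM. The log2 fold change was -0.13 (SE 0.06, edgeR adjusted p = 0.527). It was called in 3 of the 6 fits without 1 mouse, and not without control mouse 2 (-0.14), control mouse 5 (-0.09) or PLDP mouse 22 (-0.09). With mice 22 and 26 left out the log2 fold change was -0.07. Fabp7, the brain type found in astrocytes and radial glia, had 51.0, 48.9 and 47.4 CPM in the control mice and 51.6, 41.9 and 42.7 CPM in the PLDP mice, so that mouse 17 was above all control mice and mice 22 and 26 below them. Fabp3, the heart type, which neurons express, had mice 22 and 26 below all control mice and mouse 17 within their range, with 54.3, 61.6 and 55.0 CPM in the control mice and 61.0, 51.8 and 52.8 CPM in the PLDP mice. Neither was called, with log2 fold changes of -0.11 (SE 0.07) and -0.05 (SE 0.07), and Fabp3 was called lower when mouse 17 was left out. Mice 22 and 26, the lower PLDP mice in all 3 binding proteins, were also those with the low Hox sums and the low oligodendrocyte sums, and the part of either in these values was not tested.

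The desaturases of polyunsaturated fatty acids were close to equal between the diets. Fads1, the delta-5 desaturase, averaged 222 ± 4.98 CPM on the control diet and 222 ± 1.54 CPM on the PLDP diet (SD, n = 3 each), its log2 fold change being 0.002 with an SE of 0.04. Fads2, the delta-6 desaturase that begins the pathway, had 159, 164 and 153 CPM in the control mice and 154, 154 and 157 CPM in the PLDP mice, with a log2 fold change of -0.03 (SE 0.04). Fads3 had a log2 fold change of -0.06 (SE 0.06). Fads6, a member of the family by sequence, was counted at 1 to 12 reads per mouse and was the only member that did not pass the filter.

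None of the 11 genes of elongation was called, and 5 had positive and 6 negative log2 fold changes. The condensing enzymes lay between -0.04 (Elovl2, which lengthens polyunsaturated chains, SE 0.08) and 0.06 (Elovl6, which takes palmitate to stearate, SE 0.05), with Elovl5 at -0.03, Elovl7 at -0.04, Elovl1 at 0.01 and Elovl4, which makes very long chains, at 0.03. Tecr, the reductase that closes the cycle and the gene with the second-highest level per length of all members, had 359.5, 356 and 352 CPM in the control mice and 373, 349 and 354 CPM in the PLDP mice (log2 fold change 0.01, SE 0.04). The range of the PLDP mice enclosed that of the control mice, and without PLDP mouse 17 the value was -0.02. Hacd3, a 3-hydroxyacyl-CoA dehydratase, was the member of this group closest to the threshold, with 153, 146 and 154.9 CPM in the control mice and 164, 155.1 and 163 CPM in the PLDP mice. The diets were separate by a margin much smaller than the spread within either, and the log2 fold change was 0.09 (SE 0.04, edgeR adjusted p = 0.603). It was called with upper-quartile factors and without PLDP mouse 22, and its log2 fold change was 0.12 with mice 22 and 26 left out. The other dehydratases, Hacd1 and Hacd2, had log2 fold changes of -0.06 (SE 0.10) and -0.09 (SE 0.07), and Hsd17b12 of -0.03 (SE 0.05).

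Beta-oxidation held no called gene among 8 tested, with 3 positive and 5 negative values. Cpt1c, the neuronal carnitine palmitoyltransferase of the endoplasmic reticulum, had 91.3, 92.2 and 92.3 CPM in the control mice and 103, 95.5 and 95.5 CPM in the PLDP mice. Here all PLDP mice were above the control mice, with mouse 17 apart from mice 22 and 26 (log2 fold change 0.09, SE 0.05, edgeR adjusted p = 0.611). The log2 fold change was 0.16 with mice 22 and 26 left out, but 0.06 and not called without mouse 17. Cpt1a, the mitochondrial enzyme that sets the rate of fatty acid entry, had a log2 fold change of -0.01 (SE 0.06). Cpt2, its partner on the inner membrane, had -0.19 (SE 0.11) at between 144 and 189 counts per mouse, so that its precision was lower than that of the abundant members. Among the acyl-CoA dehydrogenases that take the first step of oxidation, Acadvl, the member of this group with the highest level per length, had 56.8, 55.7 and 54.5 CPM in the control mice and 59.2, 55.3 and 56.3 CPM in the PLDP mice. The diets overlapped (log2 fold change 0.03, SE 0.05). Acadl and Acadm had -0.08 (SE 0.06) and -0.05 (SE 0.06), and Hadha and Hadhb, the subunits of the trifunctional protein that completes the cycle, 0.03 and -0.05 (SE 0.05 each). Of Acadvl, 1151 exonic bases are shared with Dvl2 on the other strand.

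Of the 2 receptors, Ppard, the form found throughout the brain, had 28.5, 29.5 and 28.5 CPM in the control mice and 30.1, 30.5 and 31.1 CPM in the PLDP mice, groups that did not overlap (log2 fold change 0.08, SE 0.06, edgeR adjusted p = 0.751). Ppara, which drives oxidation genes in liver, had between 5.24 and 7.002 CPM over the 6 mice (log2 fold change -0.10, SE 0.13).

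Levels of different genes were compared as CPM per kb of annotated exon. Of the summed Scd1 and Scd2 level, Scd2 made up 84.5 ± 0.534% on the control diet and 85.1 ± 0.624% on the PLDP diet (SD, n = 3 mice each). Hacd3 took 80.5 ± 1.43% and 82.3 ± 0.900% of the dehydratases, and Cpt1c 78.7 ± 0.512% and 79.8 ± 1.74% of the level it shares with Cpt1a. Acaca was at 82.7 ± 0.398% and 82.6 ± 1.62% beside Acacb. Fads2 and Fads1 were close to each other, with 46.5 ± 0.329% and 45.6 ± 0.497% of the Fads level in the PLDP mice. Of the elongases, Elovl5 (33.7 ± 1.13%) and Elovl4 (26.9 ± 1.27%) led in the control mice, and Elovl7 had the smallest share (6.39 ± 0.511%). Acsl3 had 42.2 ± 0.430% of the synthetase level and Acsl6 28.6 ± 0.419%, while Acsl1 had 4.48 ± 0.342% on the control diet and 4.20 ± 0.0462% on the PLDP diet. Fabp3 led the binding proteins with 53.9 ± 1.64% and 55.1 ± 0.249%. This order depends on annotated exon length, which is 823 bases for Fabp3 and 3567 for Fabp5. In CPM not scaled by length Fabp5 was the highest, with a control mean of 71.2 CPM against 57.0 (Fabp3) and 49.1 (Fabp7). Shares of low members varied more, that of Ppara beside Ppard from 24.8% to 31.2% over the 6 mice, that of Hacd1 from 6.08% to 8.22% of the dehydratases, and that of Fads6 from 0.00703% to 0.075% of the Fads level. The exon lengths count every annotated transcript, so a gene with long rarely used exons is placed too low.

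**Figure D4:**
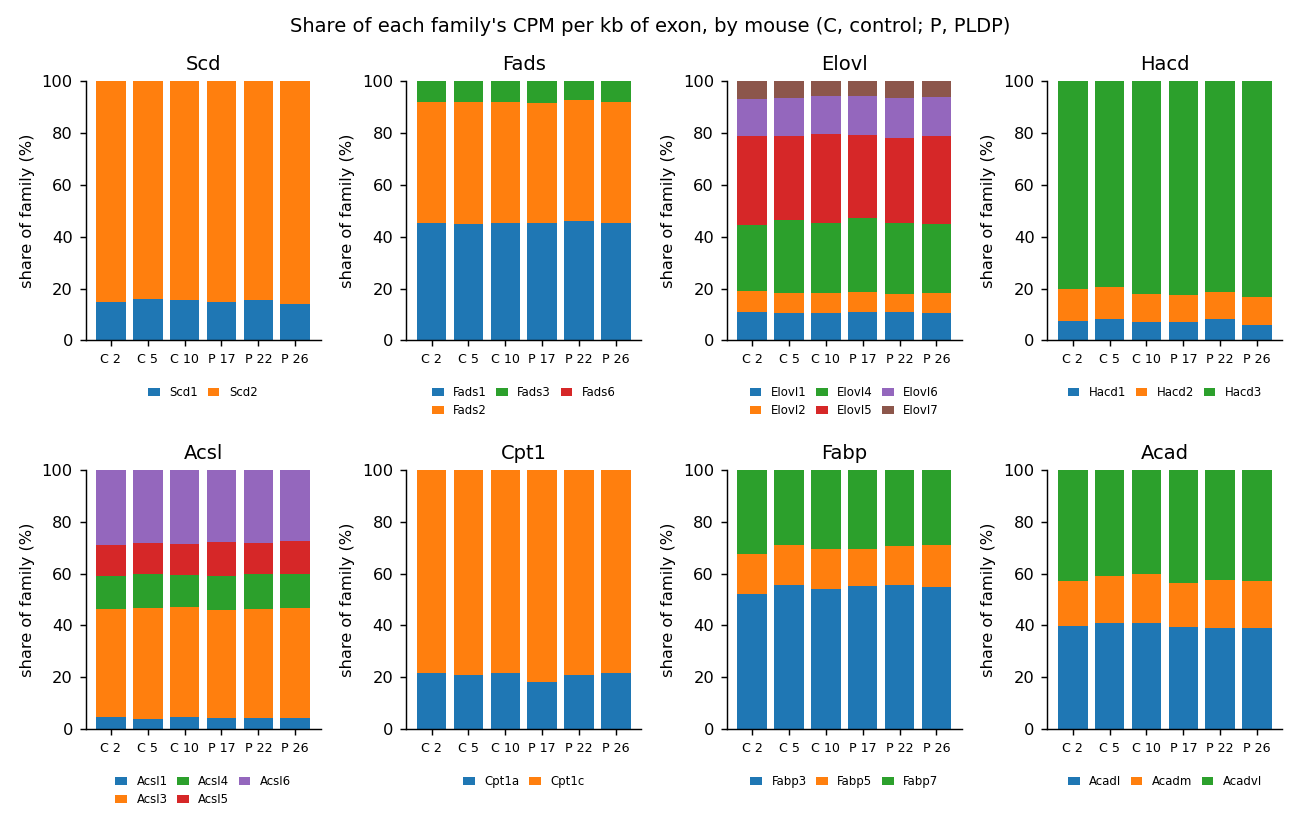
Share of each member in the summed CPM per kb of exon of its family (vertical axes, percent) in each of the 6 mice, control mice (C) at left and PLDP mice (P) at right. The order of the members is the same in every mouse for Scd, Hacd, Cpt1 and Fabp, and Scd2, Hacd3 and Cpt1c each take at least 78.4% of their family in every mouse.

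Beyond the members, 140 further genes of fatty acid metabolism were examined in 6 lists, of which 119 were tested. In the PLDP mice 7 of these (5.88%) were called higher and 3 (2.52%) lower, shares near the 4.91% and 3.69% of all features, and with edgeR 0 had an adjusted p under 0.05. In the other genes of synthesis and its regulators, 1 of 27 was higher and 2 were lower. Mid1ip1, which promotes the assembly of acetyl-CoA carboxylase, averaged 123.7 ± 4.62 CPM in the control mice and 111 ± 1.19 CPM in the PLDP mice (SD, n = 3 each). It had a log2 fold change of -0.15 (SE 0.04, edgeR adjusted p = 0.306), and its diets did not overlap. Insig1, a sterol sensor that holds the SREBP proteins at the endoplasmic reticulum and is itself an SREBP target, had 105 ± 14.99 and 92.1 ± 4.06 CPM (log2 fold change -0.19, SE 0.07, edgeR adjusted p = 0.471), with overlap. Control mouse 5 was the highest at 121.9 CPM, and without it the log2 fold change was -0.07 and not called. Nr1h3, the liver X receptor alpha that raises Srebf1 transcription, was higher (log2 fold change 0.29, SE 0.12, edgeR adjusted p = 0.515). Srebf2, the regulator of cholesterol synthesis and the gene of this list with the highest CPM not scaled by length, had a log2 fold change of 0.01 (SE 0.04).

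Genes of triglyceride storage and lipolysis had 3 of 27 higher and 0 lower. Agpat1, an acyltransferase of glycerolipid synthesis, averaged 100.2 ± 2.06 CPM in the control mice and 112 ± 3.77 CPM in the PLDP mice (SD, n = 3 each). It had separate diets and a log2 fold change of 0.17 (SE 0.04, edgeR adjusted p = 0.273). Pnpla2, adipose triglyceride lipase, and Plin4, a lipid droplet protein, had log2 fold changes of 0.22 (SE 0.08) and 0.49 (SE 0.22), and their diets overlapped. Agpat3, with the highest CPM of this list before scaling by length, had -0.04 (SE 0.04) with all PLDP mice below the control mice. In peroxisomal oxidation, Acox3, an acyl-CoA oxidase, was lower (log2 fold change -0.16, SE 0.06), and Acaa1b was higher at a few CPM (log2 fold change 0.40, SE 0.17) with reads that could be shared with its paralog Acaa1a. Of the 25 other mitochondrial and carnitine genes tested, 0 had an unadjusted p under 0.05 in either direction with edgeR's quasi-likelihood test, and Oxct1, which lets the brain use ketone bodies and was the most abundant of them, had a log2 fold change of -0.01 (SE 0.04). Of the other synthetases, binding proteins and thioesterases, 1 of 17 was higher, the acyl-CoA binding domain gene Acbd3 (log2 fold change 0.11, SE 0.05), and Acsbg1 had -0.05 (SE 0.04). Of 9 PPAR target genes, 1 was higher, Angptl4, an inhibitor of lipoprotein lipase that PPAR receptors induce, at 2.22 ± 0.511 and 3.02 ± 0.289 CPM (SD, n = 3 each; log2 fold change 0.45, SE 0.19). Of the 10 genes called in these lists, Agpat1 and Mid1ip1 were called in each fit without 1 mouse, and the other 8 lost the call in at least 1 of them. Plin4 had a log2 fold change of 0.06 with mice 22 and 26 left out, 0.26 without PLDP mouse 26, 0.29 without control mouse 5 and 0.83 without control mouse 10, Angptl4 0.28 without control mouse 5, and Acaa1b 0.26 and Pnpla2 0.14 without control mouse 2.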

How the data were processed

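Whole-brain RNA of 3 control and 3 PLDP mice was sequenced from stranded libraries of polyadenylated RNA. The authors deposited 1 file of whole-number counts per mouse without normalization. The submitters' processing notes name cutadapt 2.9, HISAT2 2.2.0, featureCounts 2.6.0 and DESeq2 1.6.3 and the builds GRCm38 and GRCh38. The annotation, the strand setting and the treatment of shared reads are not given in the sources used here. Numbered features without an Ensembl identifier took at most 0.655% of counts and were kept. Mice were grouped by their titles. Nothing says that their libraries were prepared on separate days, and p-values measure the spread between mice.

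Features were kept by filterByExpr (minimum count 10, minimum total 15), scaled by TMM and tested with edgeR 4.0.16 (glmQLFit, glmQLFTest, R 4.3.3) with diet as the only term, two-sided, over 18580 features. Genes were called at an unadjusted p under 0.05, the threshold of the study. Adjusted p-values are Benjamini-Hochberg values over all features. Standard errors are the log2 fold change divided by the square root of F. The fit was tested on simulated data. Alternatives were DESeq2 1.42.0, limma 3.58.1 voom, the likelihood ratio test, other filters and factors, Ensembl genes only and leaving out each mouse. Leaving out PLDP mice 22 and 26 was added after the data were seen. Members, lists and tests were chosen with earlier results of these data known. Values in every mouse are given for members with a p under 0.05, those whose diets did not overlap and the highest per length of each role, and of the other lists up to 3 genes with the smallest p under 0.05 and the gene with the highest CPM. Fabp7 was added after its values were seen. Plots were drawn with matplotlib 3.10.9. Protein sequences were not used here. Some genes of the other lists are not reported here.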

Additional observations from a re-analysis of the deposited data

How the results depend on the processing

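Lower members, 6 as reported, numbered 5 or 6 under the other filters, factors and limma voom, 4 with DESeq2 and with the likelihood ratio test, and from 2 to 5 when 1 mouse was left out, with the lowest count without control mouse 5 and 3 without control mouse 2. Higher members numbered 3 with upper-quartile factors, 2 with limma voom, 2 with Ensembl genes only, and from 0 (without control mouse 2) to 2 when 1 mouse was left out. In both directions together, 18.2% of members were called with upper-quartile factors, limma voom or Ensembl genes only, against 8.63% to 8.67% of all features. When 1 mouse was left out the share was 6.82% to 15.9%, against 5.95% to 12.5%. Acly kept a p under 0.05 under every alternative that kept all mice or left out 1. No member passed an adjusted p of 0.05 under the alternatives that kept all mice or left out 1, and the adjusted p of Acly was between 0.147 and 0.821. The median log2 fold change of the members was negative under all of them. From 10 to 15 members did not overlap between the diets when 1 mouse was left out, where fewer mice make separation easier. The share over all features was not counted in these fits, so these numbers cannot be set against it. Of the other fatty acid genes, 4 had a p under 0.05 with DESeq2 and from 5 to 15 when 1 mouse was left out. Of the members recomputed one by one, the log2 fold change changed sign only in Fabp3 (0.096 with PLDP mice 22 and 26 left out, and from -0.13 to 0.013 when 1 mouse was left out), Acot7 (-0.018 to 0.058) and Tecr (-0.019 to 0.029), none of which was called with all mice. Fabp3 was called lower without PLDP mouse 17. The causes were not tested. No paired analysis was possible because the mouse numbers differ between the diets. Low counts limit the precision for Cd36, Fads6, Ppara and Cpt2 among others.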
